A study of Mus musculus with 6 samples.

Results

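Heart and skeletal muscle cells share a small set of microRNAs (miRNAs), short RNAs that repress target mRNAs, and these were read here in whole newborn mouse lung. The set was defined by name as every PCR well for miR-1, miR-133a, miR-133b, miR-206, miR-208, miR-208b or miR-499, whatever the species prefix, with minor strands left out. That gave 8 wells for 7 miRNAs out of 750 miRNA wells, because miR-1 has a mouse assay (mmu-miR-1) and a rat assay (rno-miR-1). All 8 passed the detection filter for testing, as did 551 of the 750.

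Right lung was taken at day 7 of life from neonatal mice kept in room air (3 samples) or in 95% oxygen, called hyperoxia (3 samples). Exposure began before 12 h of age and lasted 7 days, dams were rotated daily between both atmospheres, and the pulmonary artery was flushed with buffer before the lung was removed. Strain and sex are not given in the sources used here, nor whether samples came from separate litters or whether heart and vessel stumps were trimmed. The p-values below thus cover only the sample-to-sample spread, part of which may be technical.

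Muscle miRNAs are made in step with the contractile machinery. miR-1 and miR-133a come from shared transcripts switched on by the muscle regulators SRF, MEF2 and MyoD, and act in opposite ways on muscle precursors: miR-1 favours differentiation and miR-133a proliferation. miR-206 and miR-133b form a second pair that belongs to skeletal muscle, while miR-208, miR-208b and miR-499 lie inside myosin heavy chain genes of heart and slow muscle. A lung holds some striated muscle of its own, since in mice a sleeve of heart muscle runs along the pulmonary veins.

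The mature sequences show which members share targets by their seed, bases 2 to 8 from the 5′ end, here in capitals. RefSeq (build GRCm38.p6) held 5 of the 7 miRNAs under their names. The deposited names give no arm, and the arm shown is the one known under the unmarked name.
miR-206: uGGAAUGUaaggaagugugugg
miR-133b: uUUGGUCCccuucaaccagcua
miR-208: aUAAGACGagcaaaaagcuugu
miR-208b: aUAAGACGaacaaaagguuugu
miR-499: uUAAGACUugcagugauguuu

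miR-206 is encoded at chr1:20679055-20679076 on the plus strand and miR-133b at chr1:20682834-20682855 on the plus strand, both within the span of the non-coding gene Lincmd1, with 3686 bases between their hairpins. miR-208 lies on the minus strand at chr14:54949072-54949093 within the span of Myh6, the alpha myosin heavy chain gene of the heart. miR-208b lies on the minus strand at chr14:54975710-54975731 within the span of Myh7, the beta myosin gene of fetal heart and slow muscle, and of the overlapping gene Gm31251. miR-499 is on the plus strand at chr2:155622893-155622913 within the span of Myh7b. Counting from the 5′ end, miR-208 and miR-208b differ only outside the seed, by G10A, A16G and C18U, and share 19 of 22 bases. miR-499 differs from miR-208 inside the seed at 1 base, G8U, and shares 12 of the 21 bases compared.

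Values are threshold cycles (Ct): the earlier the PCR signal appears, the lower the Ct and the more RNA there was, and each cycle is worth a 2-fold difference if the PCR doubles perfectly. Wells that never amplified are listed at 40, and 35 or more was taken as not detected. Each sample was read on 2 cards of 384 wells. Of the members, 7 were on the first card, which detected 307 to 319 miRNAs per sample, and hsa-miR-206 was on the second, which detected 268 to 288 in the 4 samples used. On the second card room air replicate 1 and hyperoxia replicate 2 had the same Ct in 308 of 309 amplified wells, so those values were left out of both. Relative abundance is the mean Ct of the reference miRNAs of a card, those detected in all samples used, minus the assay's Ct, a log2 scale, and changes are hyperoxia over room air on it ± SE by limma. Ct levels of different assays also depend on each assay's efficiency, so their order is only a rough guide to abundance.

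No muscle miRNA passed in hyperoxia. By limma with Benjamini-Hochberg adjustment over all 551 assays, 0 of 8 members were higher and 0 lower at an adjusted p under 0.05, and 0% of all assays passed in either direction. At an unadjusted p under 0.05, 1 of the 8 members was counted, on the lower side, against 9.07% of all assays in either direction and 5.44% on the lower side. Of the 8 values 7 lay under 0 (6 with quantile normalization), where 57.9% of all assays did, with a median of -0.42 against -0.12 over all assays. The count was 4 of the 7 then tested without hyperoxia replicate 1 or without hyperoxia replicate 3, and 5 of 8 without room air replicate 1. Both assays of miR-1 and the erratic miR-499 (-0.73 ± 6.94) are among the values under 0. With a Ct ceiling of 32, miR-499 and miR-208b were not tested, and the median of the 6 members left was -0.21 against -0.10 over all assays. The members were far from alike: they ran from -1.06 for miR-208b to 1.31 for hsa-miR-206.

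**Figure D1:**
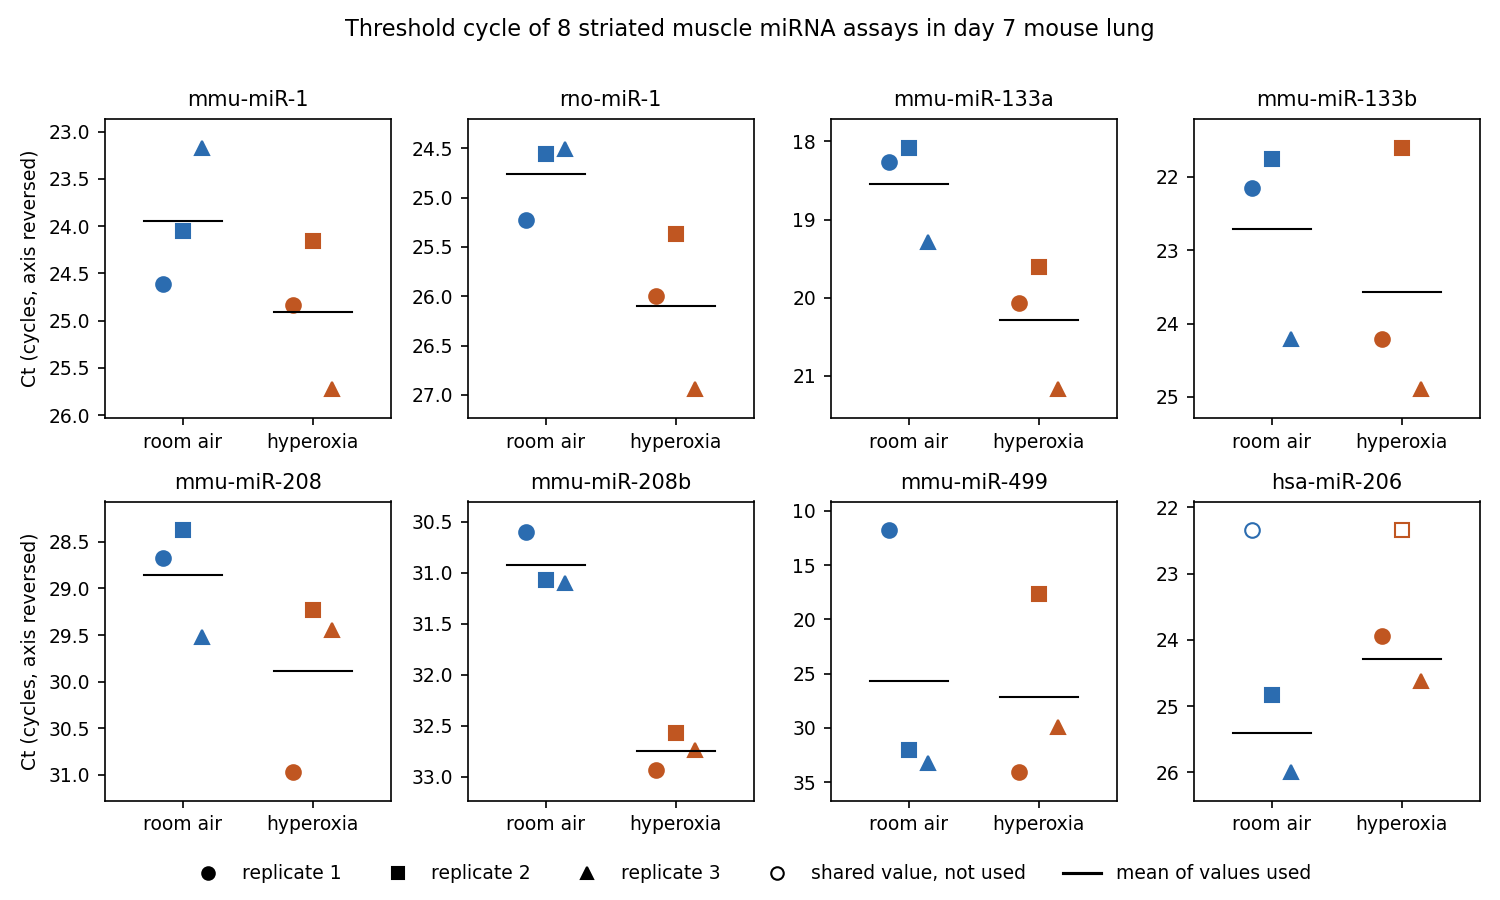
Each panel plots the Ct of an assay (vertical axis in cycles, reversed so that more RNA is higher) in the room air and hyperoxia samples, with the replicate as the symbol, open symbols for the shared second-card values and a line at the mean of the values used. The miR-208b groups are apart (30.60 to 31.10 against 32.57 to 32.94), while miR-499 jumps between 11.81 and 34.04.

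miR-133a, which restrains SRF and keeps muscle precursors dividing, had the lowest Ct among the steady members. Its Ct was 18.26, 18.08 and 19.29 in room air replicates 1 to 3 and 20.08, 19.60 and 21.18 in hyperoxia replicates 1 to 3. Every hyperoxia sample was thus later than every room air sample by Ct alone. That separation needs the shift of the whole card beside it. The mean Ct of the 282 first-card reference miRNAs was itself 0.76 cycles later in hyperoxia (22.03 to 22.60 in room air, 22.61 to 23.47 in hyperoxia, exact permutation p = 0.1, the smallest that 3 against 3 allows). By Ct without a reference, 45% of the 302 first-card assays tested had groups that did not overlap on the later side, as did 3 of the 7 members there (miR-133a, rno-miR-1 and miR-208b); on the earlier side it was 1.32% of the assays and 0 members.

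Relative to the card, the room air samples had miR-133a at 3.77, 4.40 and 3.31, and the hyperoxia samples at 3.39, 3.01 and 2.13. Hyperoxia replicate 1 then lay above room air replicate 3, so the groups overlapped. The log2 fold change was -0.98 ± 0.46 (0.506-fold, n = 3 and 3, 95% interval -2.13 to 0.16), with a limma adjusted p of 0.632. In room air miR-133a ranked 59th from the earliest Ct of the 282 assays.

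miR-1, which promotes muscle differentiation, was read by both of its assays. The mouse assay had a Ct of 24.61, 24.05 and 23.17 in room air against 24.83, 24.16 and 25.73 in hyperoxia. Its relative abundance was -2.59, -1.56 and -0.57 in room air against -1.36, -1.54 and -2.42 in hyperoxia. The groups overlapped fully, with both the lowest and the highest value in room air. The change was -0.20 ± 0.60 (95% interval -1.69 to 1.29, limma adjusted p = 0.935), and 0.29 without room air replicate 3 or 0.09 without hyperoxia replicate 3.

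The rat assay of miR-1 had a Ct of 25.23, 24.56 and 24.50 in room air against 25.99, 25.37 and 26.94 in hyperoxia. On the relative scale it stood at -3.20, -2.07 and -1.90 against -2.53, -2.76 and -3.63, so its groups overlapped as well. The estimate was -0.58 ± 0.49 (95% interval -1.80 to 0.64, limma adjusted p = 0.749). It ran from -0.98 without room air replicate 1 to -0.28 without hyperoxia replicate 3, and was -0.34 without room air replicate 3. It was the assay most like mmu-miR-1 across samples: after each was centred on its own mean, they differed by a root mean square (RMS) of 0.321 over the 6 samples, less than any of the 275 other first-card miRNAs compared. In hyperoxia the rat assay ran 1.16, 1.22 and 1.21 cycles behind the mouse assay, and in room air 0.61, 0.51 and 1.33.

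miR-1 and miR-133a are made from the same transcripts, but the Ct difference of mmu-miR-1 and miR-133a was not fixed in room air. Each assay had 1 well per sample, so scatter of the wells and a change in ratio cannot be told apart. mmu-miR-1 ran 6.36, 5.96 and 3.89 cycles behind miR-133a in room air and 4.75, 4.55 and 4.55 in hyperoxia. Such a difference inside a sample needs no reference. Room air replicate 3 was the sample apart, with early mmu-miR-1 and late miR-133a, and the hyperoxia samples lay within the room air range. The rat assay of miR-1 was hardly earlier there, at a Ct of 24.50 against 24.56 in room air replicate 2. The mean difference moved by -0.78 cycles (exact permutation p = 0.4, adjusted p = 0.5 over 4 such pairs, which cannot pass at 3 against 3).

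**Figure D2:**
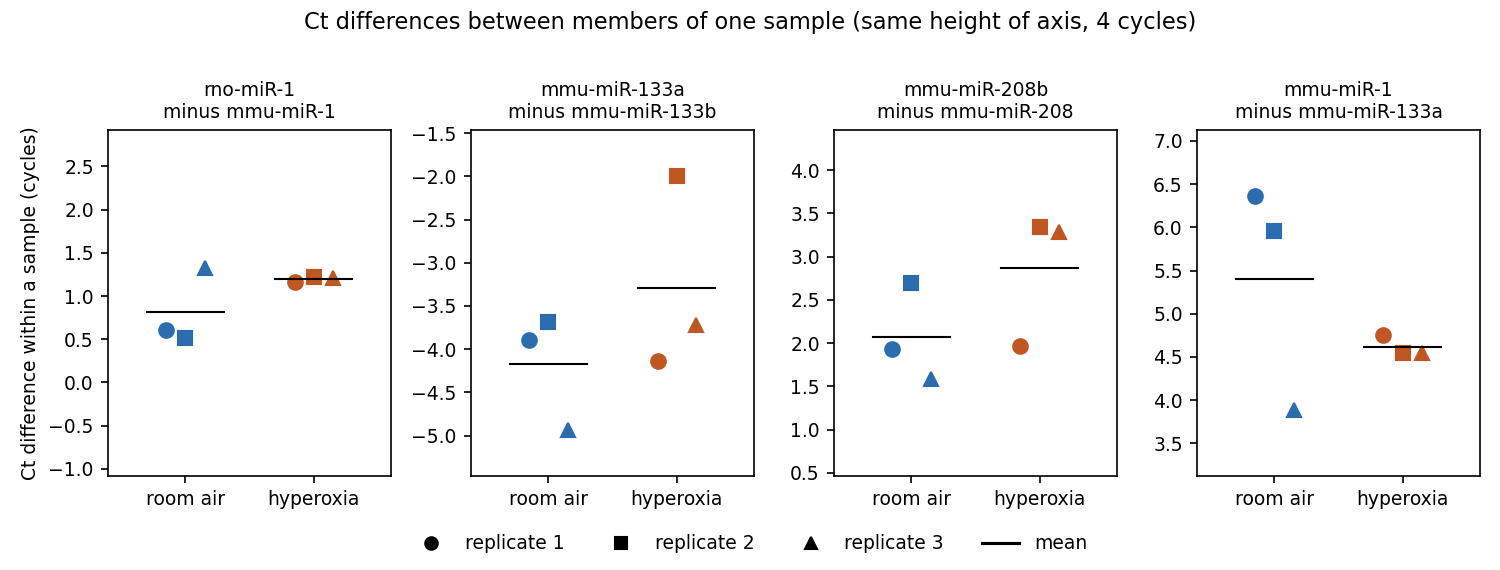
The vertical axes give the Ct of one member minus that of another in the same sample, in cycles, with the replicate as the symbol and a line at the group mean. The hyperoxia samples lie within 0.06 cycles of each other for rno-miR-1 minus mmu-miR-1, while miR-133a minus miR-133b ranges from -4.93 to -2.0 over the 6 samples.

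miR-133b, the skeletal muscle paralog of miR-133a, scattered within both groups. Its Ct was 22.15, 21.76 and 24.21 in room air against 24.21, 21.61 and 24.90 in hyperoxia. On the relative scale these were -0.13, 0.72 and -1.61 against -0.75, 1.01 and -1.59. The highest value came from hyperoxia replicate 2 and the lowest from room air replicate 3, so the groups overlapped across nearly their whole range. The change was -0.10 ± 0.89 (95% interval -2.31 to 2.11, limma adjusted p = 0.969), an interval that holds a 4-fold difference either way. It was 0.43 without room air replicate 2 and 0.44 without hyperoxia replicate 3. Its difference from miR-133a was -3.89, -3.68 and -4.93 cycles in room air and -4.14, -2.0 and -3.72 in hyperoxia, a mean shift of 0.88 cycles (exact permutation p = 0.5, adjusted p = 0.5).

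hsa-miR-206, which shares the Lincmd1 locus with miR-133b and supports regeneration of the neuromuscular junction, was the only member with a value above 0. In the samples used its Ct was 24.83 and 25.99 in room air (replicates 2 and 3) and 23.95 and 24.62 in hyperoxia (replicates 1 and 3). The relative values were 0.27 and -1.01 against 1.26 and 0.63, which did not overlap; of the 249 second-card assays tested, 12.4% had groups apart on the higher side and 16.9% on the lower. The change was 1.31 ± 0.61 (2.48-fold, n = 2 and 2, 95% interval -0.47 to 3.09, limma adjusted p = 0.667). The left-out value, 22.35 in both room air replicate 1 and hyperoxia replicate 2, was the earliest of all, and the change was 0.26 with it kept in room air, 1.93 with it kept in hyperoxia and 0.88 with it kept in both.

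The well of hsa-miR-206 carries a further limit. All 105 second-card names that contain an assay number match the number listed 3 wells later, and 0 match the number of their own well. With names as listed, 5 control RNAs differed between the cards by a median of 0.72 cycles, against 6.96 cycles with values taken 3 wells later, so names were used. The well 3 places after hsa-miR-206 read 25.06 and 23.47 in room air against 23.59 and 24.71 in hyperoxia in the same samples, groups that overlap.

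Of the myosin-gene miRNAs, miR-208b was the member whose groups stood apart most clearly. Its Ct was 30.60, 31.07 and 31.10 in room air against 32.94, 32.57 and 32.74 in hyperoxia. On the relative scale it was -8.57, -8.59 and -8.51 in room air against -9.47, -9.96 and -9.43 in hyperoxia, with all hyperoxia samples below all room air samples. The change was -1.06 ± 0.25 (0.479-fold, n = 3 and 3, 95% interval -1.69 to -0.44), with an unadjusted p of 0.00634 and a limma adjusted p of 0.333. It was the only one of the 7 first-card members with groups apart on the lower side on this scale, where 16.2% of the 302 first-card assays tested had them, and 0 members lay apart on the higher side, where 6.29% did.

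By mean Ct miR-208b was also the faintest member. Only 3 of the 282 assays had a later room air Ct than miR-208b, and with a Ct ceiling of 32 it counted as detected in room air alone and could not be tested. Its value stayed negative over all 23 alternatives that gave one, from -1.82 without normalization to -0.88, with a limma adjusted p from 0.169 to 0.637. Several of these, such as those for the shared second-card values, could not move a first-card estimate. Its pooled SD within groups was 0.21, under the 0.421 of the median first-card assay.

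miR-208, the Myh6 miRNA of working heart muscle, had a Ct of 28.67, 28.38 and 29.52 in room air against 30.97, 29.23 and 29.45 in hyperoxia. Its relative values were -6.65, -5.90 and -6.92 against -7.50, -6.62 and -6.14. The groups overlapped, and hyperoxia replicate 1 had the latest Ct and the lowest relative value. The change was -0.27 ± 0.47 (95% interval -1.44 to 0.91, limma adjusted p = 0.874), and 0.10 without hyperoxia replicate 1 or 0.03 without room air replicate 2.

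miR-208 and miR-208b share a seed but lie in different myosin genes, and the gap between their assays varied from sample to sample. miR-208b trailed miR-208 by 1.93, 2.69 and 1.59 cycles in room air and by 1.97, 3.34 and 3.29 in hyperoxia. The shift of the mean was 0.80 cycles (exact permutation p = 0.2, adjusted p = 0.5), so a difference between their responses was not shown.

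miR-499, the Myh7b miRNA, gave readings that no group label sorts. Its Ct was 11.81, 32.01 and 33.25 in room air against 34.04, 17.63 and 29.88 in hyperoxia. Room air replicate 1 and hyperoxia replicate 2 read it early, and the other samples read it close to the detection limit or, in hyperoxia replicate 3, about 5 cycles before it. Within its group room air replicate 1 was over 20 cycles ahead of the others. The pooled SD of 10.1 on the log2 scale exceeded that of every other one of the 282 first-card reference assays, and the other 18 of them in its plate row K had a median of 0.452.

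With such scatter the change of miR-499, -0.73 ± 6.94 (95% interval -18.01 to 16.54, limma adjusted p = 0.969), carries no direction. It was 6.03 without room air replicate 1 and -5.24 at the other end, without hyperoxia replicate 2. Ranges over 10 cycles within a group were found in 8 of the 282 assays, miR-499 among them; 5 lay in row G and 2 in row I of the plate. The samples with an early miR-499 are also the pair that shares second-card values, although on the first card these samples differ. Whether either fact bears on the miR-499 wells was not tested.

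**Figure D3:**
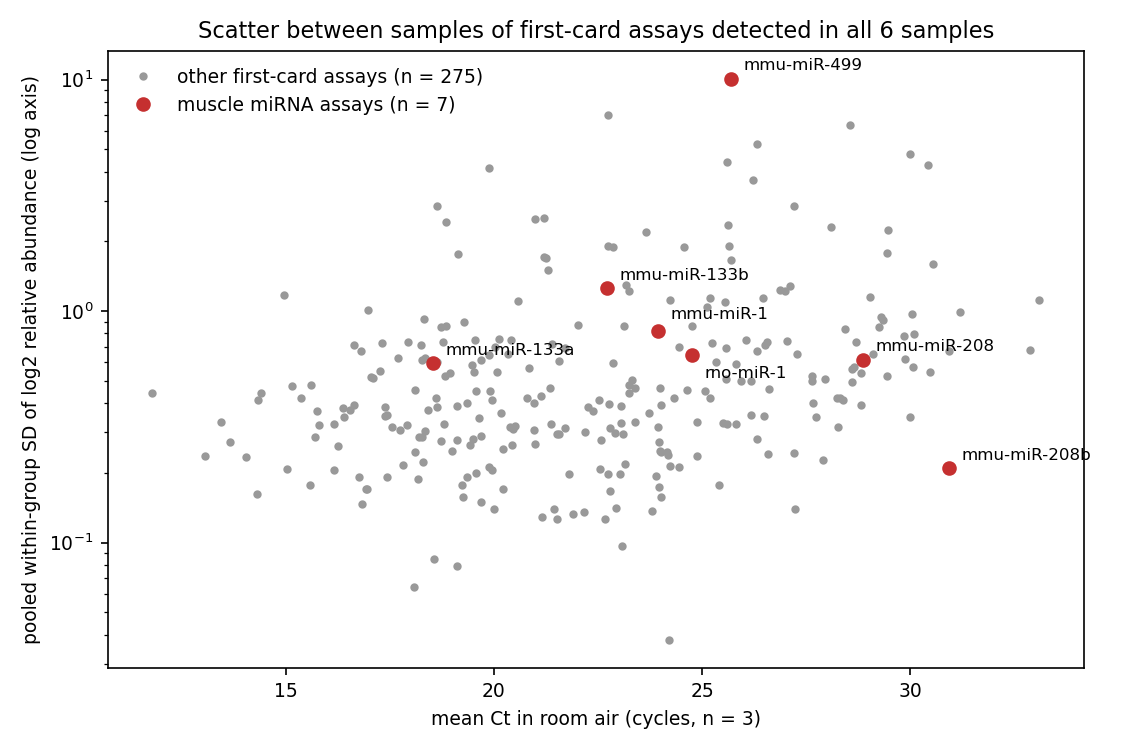
Each point is a first-card assay detected in all 6 samples, with its mean room air Ct in cycles across and its pooled within-group SD of log2 relative abundance up (log axis), muscle miRNAs in red. miR-499 lies at the top at 10.1, miR-133b at 1.25, and miR-208b at 0.21 among the steadier late assays.

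The members as a group scattered more than a typical assay, with a median pooled SD of 0.644 for the 7 on the first card against 0.421 for the 282 assays. Measured from miR-133a or from mmu-miR-1, they also did not all lie close across samples. From miR-133a, rno-miR-1 differed by an RMS of 0.56 and miR-208b by 0.565, while miR-208 (0.838), mmu-miR-1 (0.863) and miR-133b (0.877) were farther than the median of the 275 other assays, 0.772. The assays nearest to miR-133a were miR-187 (0.281), miR-150 (0.335), miR-134 (0.355), miR-93 (0.362) and miR-106a (0.363). Those nearest to mmu-miR-1 were miR-181a (0.331), miR-543 (0.376), miR-127 (0.378), miR-652 (0.392) and miR-494 (0.395). These distances rest on 6 samples that share a card and a reference, and are given as descriptions. They also grow with an assay's own scatter, and members were compared in this way only with miR-133a and mmu-miR-1.

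Summed on the linear scale, the 6 first-card members besides miR-499 gave a log2 level of 3.89, 4.55 and 3.49 in room air. The same sum was 3.54, 3.40 and 2.32 under hyperoxia, and miR-133a made up most of it. Hyperoxia replicate 3 was the lowest sample, and hyperoxia replicate 1 lay above room air replicate 3. With miR-499 included, room air replicate 1 alone reached 10.23, so any total of muscle miRNAs in these data depends on whether that well is counted. The sums were not tested between groups. In a bulk sample a change in muscle cell number and a change in RNA per cell cannot be told apart.

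**Figure D4:**
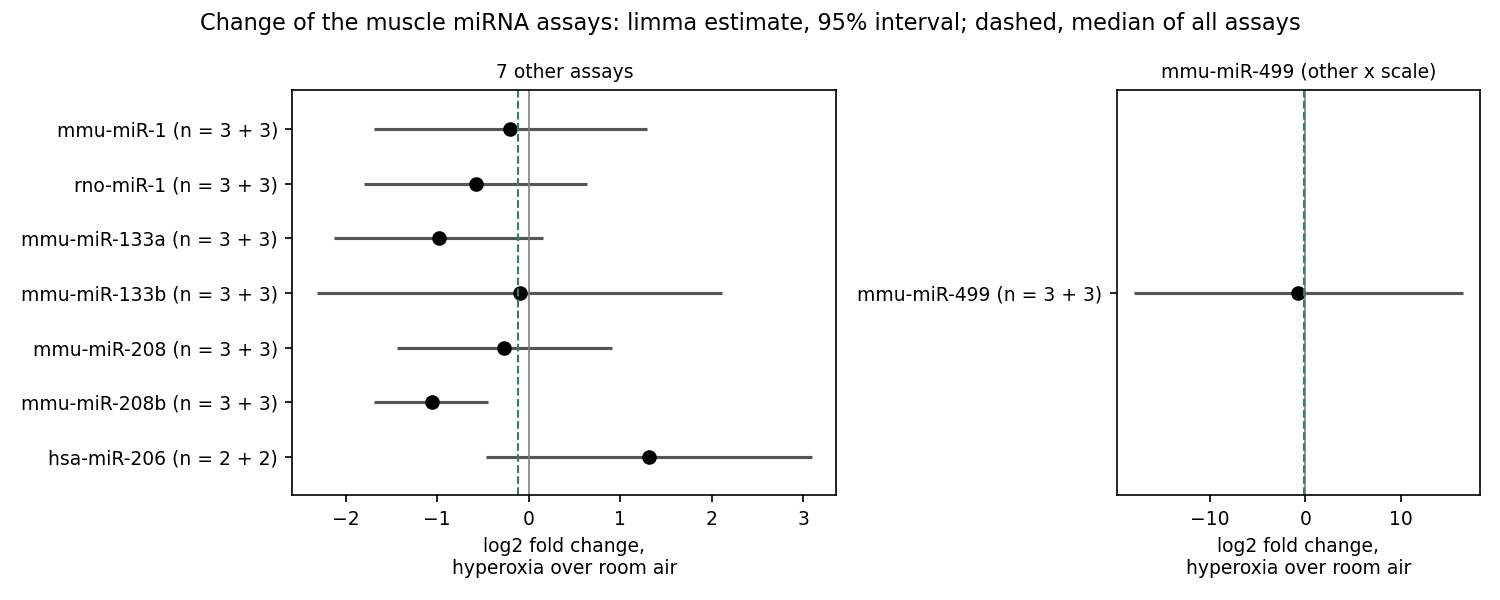
Points give the limma log2 fold change of hyperoxia over room air for each assay and bars its 95% interval, with n per group beside the name and a dashed line at the median of all 551 assays, -0.12. The interval of miR-208b, -1.69 to -0.44, excludes 0 before adjustment, and that of miR-499 (right, other scale) spans -18.01 to 16.54.

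Minor strands and an antisense assay give little more. The strand opposite miR-1 (rno-miR-1#) had a Ct of 40 in all 6 samples, and that opposite miR-133a (mmu-miR-133a#) amplified in room air replicate 3 alone, at 30.39. An assay named mmu-miR-1-2-AS, which is not a member by name, read 16.86 in hyperoxia replicate 1 and 40 in the other 3 samples used; the shared second-card value was 17.36.

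Muscle-associated miRNAs that other tissues also make were read from a list of 18 names, all found, in 21 assays. Of the 21 tested, 0 were higher and 0 lower past the adjusted threshold, 14 lay above 0 and 7 below, and the median was 0.20. Over all 551 assays 232 lay above 0 and 319 below, with a median of -0.12. miR-486, enriched in muscle and in red blood cells, was at 0.24 ± 0.79 (limma adjusted p = 0.935), and hsa-miR-378, hosted by a gene of energy metabolism, at 0.84 ± 0.65 (0.738) on the second card. miR-221 and miR-222, which decline as muscle precursors differentiate, were at 1.30 ± 0.31 and 0.72 ± 0.32 (0.333 and 0.61). At an unadjusted p under 0.05, 2 assays of the list were counted above 0, miR-221 and the first-card assay of miR-322, and 1 below. Of all assays, 9.07% were so counted in either direction and 5.44% below 0. The first-card miR-322 assay was at 6.87 ± 1.61 (0.333), but the second-card assay of miR-322 was at -0.41 ± 0.38 (0.772). The assay counted below was miR-503, a repressor of the cell cycle, at -1.60 ± 0.32 (0.314). miR-26a was at -1.60 ± 0.84 and miR-497 at -0.53 ± 0.25 (0.667 and 0.632). miR-322, miR-503, miR-26a and miR-497 were named after their values were seen. The muscle-restricted members and this wider list thus had medians on opposite sides of 0, without a test of that difference.

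Markers of other tissues place these levels. The lists of epithelial (8 of 8 names), endothelial (2 of 2) and leukocyte (5 of 5) miRNAs were all found, with the earliest first-card assays at a room air mean Ct of 16.5, 11.8 and 16.2. Smooth muscle and mesenchymal miRNAs (5 of 5 found) had 4 of 7 assays above 0 and 3 below, with a median of 0.24. Over 4 first-card assays that every sample detected, their summed level was 8.38 to 8.62 in room air and 7.98 to 8.37 in hyperoxia on the log2 scale. The earliest of these assays, the smooth muscle miR-145 (room air mean Ct 14.3), was at -0.68 ± 0.23 (limma adjusted p = 0.477), while miR-199a-3p was at 0.24 ± 0.24 and miR-214 at 0.49 ± 0.62 (0.781 and 0.829). The part of these cells in the muscle values was not tested. Of the 3 red blood cell miRNAs, the 2 on the first card, miR-451 and miR-486, had summed levels that overlapped widely (1.17 to 3.35 against 1.39 to 4.11). The third, hsa-miR-144 on the second card, was at -1.29 ± 0.32 (limma adjusted p = 0.446), while miR-451 was at 0.71 ± 1.20 (0.868). miRNAs of other organs were not at 0: liver miR-122 had a room air Ct of 24.95 to 26.90 and brain miR-9 of 25.47 to 25.54, both near the Ct of miR-1, while brain miR-124 was detected in 4 of 6 samples. In room air the mouse assay of miR-1 read 23.17 to 24.61 and the rat assay 24.50 to 25.23. A Ct near these thus occurred for miRNAs whose main source is another organ, and also within the cell lists above. Epithelial miR-205 had a room air mean Ct of 24.8, leukocyte miR-155 of 23.1 and mesenchymal miR-199a-5p of 23.5. The source of miR-1 was not tested.

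The reference sets the size of every value. With the 5 control RNAs as reference, miR-133a was at -1.55, miR-208b at -1.63, rno-miR-1 at -1.14 and hsa-miR-206 at 0.89, and the median of all assays moved from -0.12 to -0.62. With U6, a nuclear RNA, they stood at -1.0, -1.08, -0.59 and 1.03. The authors' deposited table gives folds of hyperoxia over room air of 0.404 for miR-133a, 0.382 for miR-208b, 0.695 for mmu-miR-1, 0.534 for rno-miR-1, 0.743 for miR-133b, 0.664 for miR-208, 0.48 for miR-499 and 2.28 for hsa-miR-206. Its value for miR-499 averages the Ct of 11.81 with those over 32, and its value for hsa-miR-206 includes the shared Ct in both groups.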

How the data were processed

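MicroRNAs were read by RT-PCR in 3 room air and 3 hyperoxia samples after 12 cycles of pre-amplification, per the labels' protocols. The authors deposited a Ct per well and, per the file headers, group means and a fold, a ratio of hyperoxia over room air without a test. Instrument, software and threshold are not given in the sources used here.

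R 4.3.3 and limma 3.58.1 (lmFit, eBayes, two-sided) were run on all assays with at least 2 detected samples per group. The fit was also run on simulated data with equal scatter for all assays and changes larger than those of the members. That run does not cover changes and scatter like those of the members. The reference was the mean of 282 first-card and 249 second-card miRNAs detected in all samples used. Undetected wells stayed missing. The prior had 1.62 degrees of freedom. Ct differences between members were compared by exact permutation tests. Sequences and gene positions came from RefSeq.

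Members and lists were chosen with earlier results of these data known. All members, their minor strands, 4 muscle-associated miRNAs and the 5 assays nearest to miR-133a and to mmu-miR-1 were named by rule; the number of samples limits the precision.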

Additional observations from a re-analysis of the deposited data

How the results depend on the processing

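Over 24 alternatives 0 members passed, and 172 of 184 member values kept their sign. Some settings could not move a first-card estimate, so its sign was bound to stay there. Among them were those for the shared second-card values, the number of samples that must detect an assay and the replicate block. miR-133a and rno-miR-1 kept theirs in 24 alternatives, miR-208b in the 23 that gave a value and hsa-miR-206 in 18, none of which left out a sample it uses. With a sample left out, mmu-miR-1 ran from -0.71 to 0.29, miR-133b from -0.81 to 0.44, miR-208 from -0.60 to 0.10 and miR-499 from -5.24 to 6.03; miR-133b was at 0.01 with quantile normalization. Scaled to the control RNAs, the members had a median of -0.99, and unscaled of -1.18, where the median of all assays was -0.62 in both; with a sample left out it was -0.75 to -0.28. Of all assays, 1 passed with a Ct ceiling of 32, with the first card alone or with a trend in eBayes, 2 with 1 detected sample per group, and 0 to 1 with a sample left out, none of them a member; the cause was not tested. Replicate numbers did not pair the samples (correlations of deviations -0.336, -0.234 and -0.176, with 0 of 6 samples closest to its own number). With the replicate block, 0 of 7 members and 0 of 301 assays passed and the members' median was -0.58; second-card assays could not be fitted. Detection limits miR-208b and miR-499.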
